A study of Mus musculus with 12 samples.

Results

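The genes described here are 6 members of the plasminogen activator system and of the families that restrain serine proteases, out of 14851 genes in the expression tables of mouse vascular tumor cells. They are the urokinase-type activator Plau (gene ID 18792), the tissue-type activator Plat (18791), the urokinase receptor Plaur (18793), the serpin Serpine2 (20720), the secretory leukocyte protease inhibitor Slpi (20568) and Wfdc17 (100034251), a small secreted protein with a whey acidic protein (WAP) domain. All 6 symbols were found. Serpine2, Slpi and Wfdc17 were selected on their fold changes, as large decreases in the knockout (KO) cells, so their differences from control are given as a description with no test. Plau, Plat and Plaur were not chosen for a decrease, and their differences were tested.

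RNA sequencing was performed on 562 cells, a line that immortalized spontaneously from cutaneous vascular tumors of a C57BL/6 mouse in which tamoxifen-induced Scl-Cre had removed the floxed Tsc1 gene from endothelial cells. Control and KO cells alike therefore lack Tsc1 and its restraint on mTORC1. The controls, labelled wildtype, carried a guide RNA against EGFP, and the other groups had lost the autophagy gene Fip200 (Rb1cc1), Atg5 or Atg7 through lentiviral Cas9 and puromycin selection. Each of the 4 groups held 3 libraries, and 3 values in a row for the knockouts stand in the order Fip200, Atg5, Atg7 unless named otherwise. The paper describes a pair of Fip200 KO clones and does not say which of them gave the libraries. Atg5 and Atg7 were each cut by a single guide. All cells descended from the same tumor line, which limits the groups as models of autophagy loss in general. The comparison of each KO with control asks what changes in the transcripts of these cells when autophagy is disabled. Small edits by Cas9 need not lower the transcript of the gene they hit, so an unchanged level does not speak against a label. Rb1cc1 measured 2.06 to 6.84 RPKM (reads per kilobase of transcript, scaled to library size) in Fip200 KO and 6.43 to 8.27 in control libraries. Atg5 overlapped between Atg5 KO (8.53 to 15.5 RPKM) and control (10.6 to 14.2 RPKM), whereas Atg7 was lower in Atg7 KO (2.64 to 8.34 RPKM) than in control (18.4 to 25.0 RPKM).

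Plasminogen activators are secreted serine proteases that cut the zymogen plasminogen into plasmin, which dissolves fibrin and cleaves matrix proteins. Urokinase works mainly at the cell surface, bound to its receptor, while the tissue-type activator is released by endothelial cells and acts best on fibrin. Serpins such as Serpine2 trap these proteases irreversibly, and small WAP proteins such as Slpi inhibit the elastase class instead.

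Libraries held 17266926 to 23629730 recovered reads. The 8 endothelial marker genes summed to 1087 to 2840 RPKM in every library, with Cdh5, Kdr and Esam called higher in Atg5 KO. Of the lymphatic markers that the tissue label calls for, 5 of 6 were in the tables and summed to 220 to 821 RPKM, although the lymphatic regulator Prox1 was low, and Lyve1 was called higher in Atg5 KO and Atg7 KO. The defining myeloid genes Ptprc, Csf1r and Adgre1 were below 0.2 RPKM in every library, while the 7 listed myeloid genes together, mostly Cd68, Cd14 and Lyz2, summed to 108 to 135 RPKM in control and to 26.4 to 31.0 and 24.4 to 32.0 in Atg5 KO and Atg7 KO, where Cd68 (−2.26 and −1.70) and Cd14 (−1.79 and −2.81) were called lower. Fip200 KO replicates 2 and 3 had low myeloid sums too, at 33.0 and 24.4 RPKM, while Fip200 KO replicate 1 stood apart at 286 RPKM. The 5 listed fibroblast genes summed to 3.12, 209 and 40.7 RPKM in the 3 controls and to 1.42 to 35.7 RPKM in the KO libraries. Col1a2 measured at most 0.020 RPKM in control and 0.76 to 1.54 RPKM in Atg7 KO, and is given by level because it passed the filter through Atg7 KO alone. The 6 smooth muscle genes summed to 3.17 to 5.54 RPKM in control, 3.08 to 21.8 in Fip200 KO, 9.67 to 15.7 in Atg5 KO and 3.76 to 64.5 in Atg7 KO, with Tagln called higher in Atg5 KO and Atg7 KO and Acta2 in Atg5 KO. The part of these markers in the results below was not tested. Because each library is a bulk sample, fewer cells that carry a transcript and less of it per cell cannot be told apart. Atg5 KO replicates 1 and 2 were far more alike (chi-square per degree of freedom 8.66 over genes) than any other pair of replicates in a group (51.4 to 316). The labels list them as 2 replicates, and whether they are 2 preparations of 1 sample was not tested. With their mean as 1 library, chosen after the data were seen, Plat in Atg5 KO was −4.02 (limma adjusted p = 0.0144), and 12 related genes were lower and 3 higher. Library names carry the prefixes FY, JG and Yang, which are unevenly spread over the groups. Control replicate 1 shares FY with the 3 Fip200 KO libraries, control replicates 2 and 3 share JG with Atg5 KO replicates 1 and 2, and the Yang libraries (Atg5 KO replicate 3 and all of Atg7 KO) have no control of their own. No within-prefix value can therefore be given for Atg7 KO, and a fit with a term for the prefix links its libraries to the controls only through Atg5 KO replicate 3.

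Upstream sequence is shown for each member with a promoter entry. These were the 3 inhibitors chosen for their decrease and Plaur, whose level overlapped between groups. RefSeq promoter entries on GRCm38.p6 matched 4 of the 6 members. Each run is the 250 bases before the annotated start, on the strand of the gene: Serpine2 at chr1:79858666-79858915 (minus strand), Slpi at chr2:164356508-164356757 (minus strand), Wfdc17 at chr11:83703806-83704055 (plus strand) and Plaur at chr7:24462233-24462482 (plus strand). Capitals mark matches, on either strand, to the TATA box TATAAA, the CCAAT box, the Sp1 motif GGGCGG, the AP-1 motif TGANTCA, the cyclic AMP response motif TGACGTCA, the E-box CACGTG and the STAT motif TTCNNNGAA.
Serpine2: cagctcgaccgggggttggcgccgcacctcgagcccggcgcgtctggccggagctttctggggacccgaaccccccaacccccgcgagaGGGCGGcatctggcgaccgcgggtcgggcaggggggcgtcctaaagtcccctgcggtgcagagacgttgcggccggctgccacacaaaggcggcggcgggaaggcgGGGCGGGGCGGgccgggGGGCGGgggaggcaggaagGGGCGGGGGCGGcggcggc
Slpi: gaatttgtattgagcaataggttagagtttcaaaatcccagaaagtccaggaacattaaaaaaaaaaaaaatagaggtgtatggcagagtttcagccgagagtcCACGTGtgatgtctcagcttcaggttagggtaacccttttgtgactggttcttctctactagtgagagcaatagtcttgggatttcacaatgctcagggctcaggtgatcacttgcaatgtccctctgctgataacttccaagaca
Wfdc17: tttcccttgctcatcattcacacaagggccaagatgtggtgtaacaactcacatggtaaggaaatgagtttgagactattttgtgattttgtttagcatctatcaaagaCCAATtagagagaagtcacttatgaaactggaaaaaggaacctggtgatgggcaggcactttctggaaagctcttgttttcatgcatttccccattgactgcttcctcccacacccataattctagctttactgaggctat
Plaur: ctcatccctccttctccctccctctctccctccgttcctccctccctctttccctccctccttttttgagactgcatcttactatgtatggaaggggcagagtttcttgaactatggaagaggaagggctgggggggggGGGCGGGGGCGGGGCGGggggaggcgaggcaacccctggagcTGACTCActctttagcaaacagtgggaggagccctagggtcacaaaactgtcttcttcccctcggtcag

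The Serpine2 sequence was rich in G and C (78.8%, against a median of 52.4% over all 32851 RefSeq promoter entries) and held 6 GGGCGG boxes. Plaur held 3 GGGCGG boxes, adjoining or overlapping, and 1 TGANTCA. Slpi (42.0% G and C) held only a CACGTG, the core of the motif bound by the lysosomal regulator TFEB, and Wfdc17 (41.2%) only a CCAAT. Among all promoter entries of this length, 32.7% held GGGCGG, 6.75% TGANTCA, 33.8% CCAAT and 6.02% CACGTG. The letters TATAAA (12.4% of entries), TGACGTCA (1.55%) and TTCNNNGAA (7.02%) matched none of the 4. No motif was common to the 3 inhibitors, and no match of one motif overlapped a match of another. These are letter matches and not measured binding sites.

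Plat was the member whose decrease was tested and called in all 3 KO groups. In control libraries it measured 835, 572 and 997 RPKM, which placed its mean (802 ± 214, SD, n = 3) at rank 31 of all 14851 genes. Fip200 KO libraries gave 140, 171 and 31.9 RPKM. Atg5 KO libraries gave 59.1, 71.4 and 34.6 RPKM. Atg7 KO libraries gave 37.6, 139 and 111 RPKM. All 9 KO libraries lay below the lowest control, and the KO libraries themselves spread over a wide range, with Fip200 KO replicate 3 the lowest and Fip200 KO replicate 2 the highest. The mean level in Fip200 KO was 7.01-fold lower (114 ± 72.9 RPKM, SD, n = 3). In Atg5 KO it was 14.6-fold lower (55.1 ± 18.7 RPKM), while Atg7 KO libraries averaged 8.35-fold lower (96.0 ± 52.5 RPKM).

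A gene was called when its adjusted p from limma was at most 0.1 and its log2 fold change, on the log2(RPKM + 0.5) scale, was at least 1 in size. For Plat, the log2 fold change was −3.09 (SE 0.61, adjusted p = 0.0867) in Fip200 KO, where 1.64% of the genes that were tested fell past this limit and 0.347% rose past it. In the Atg5 knockout Plat changed by −3.88 (SE 0.31, adjusted p = 0.00305), against 6.94% of genes called lower and 4.31% higher. In the Atg7 knockout it changed by −3.22 (SE 0.48, adjusted p = 0.0130), against 6.81% called lower and 3.29% higher. The 3 comparisons share their control libraries. The Fip200 KO call was a narrow one and was lost when any library of the comparison other than Fip200 KO replicate 3 was left out, with adjusted p between 0.117 and 0.459. It was also lost with no filter on low values (adjusted p = 0.128), with limma-voom on recovered reads (0.104), with the replicate number as a block (0.117) and with a term for the library-name prefix (0.402). The calls in Atg5 KO and Atg7 KO were kept without any single library, and the Atg7 KO call was lost with a term for the library-name prefix (−2.27, adjusted p = 0.602). Within a library-name prefix, the log2 fold change was −3.18 for Fip200 KO (3 KO libraries against 1 control) and −3.53 for Atg5 KO (2 against 2), and each KO library was below each control.

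**Figure D1:**
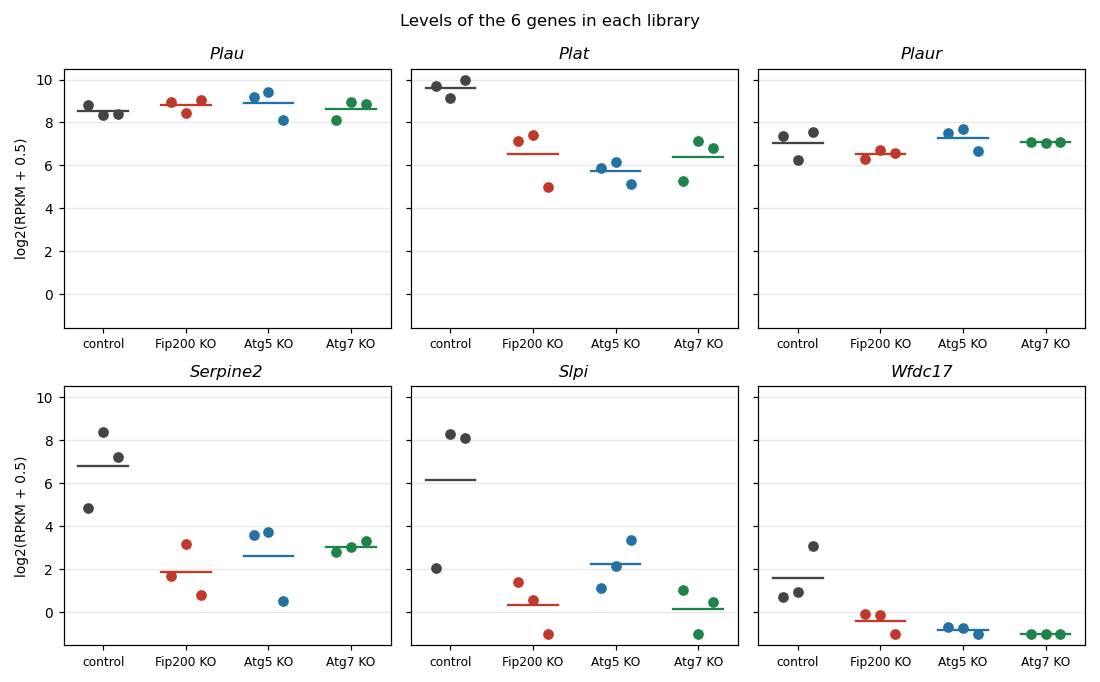
Level of each gene in each library, as log2(RPKM + 0.5) on the vertical axis, for the control and the 3 KO groups. Points are libraries in replicate order and bars are group means. Plat and Serpine2 lie lower in all 9 KO libraries than in any control, Plau and Plaur overlap with control, and control replicate 1 is far below the other controls for Slpi.

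Plat lies on chromosome 8 in RefSeq GRCm38.p6, and the median difference over the tested genes of that chromosome was also below 0. Over its 641 genes tested in every KO comparison, the median log2 fold change was −0.37, −0.37 and −0.38, the lowest of the 20 chromosomes in each. Chromosome X was next, at −0.29, −0.36 and −0.29, and the highest medians were 0.36, 0.35 and 0.24, for chromosomes 10, 4 and 9. The 10 tested genes nearest to Plat in gene order, 5 on each side, had medians of −0.64, −0.62 and −0.45. Its immediate neighbours were Ikbkb (−0.65, −0.73 and −0.49) and Ap3m2 (−1.07, −0.97 and −0.77). Both values have the sign of the Plat difference and a smaller size, and neither gene was called. The chromosomes were compared after the likeness of other genes to Plat had been seen, no test was run on them, and the part of this shift in the Plat difference was not tested.

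**Figure D2:**
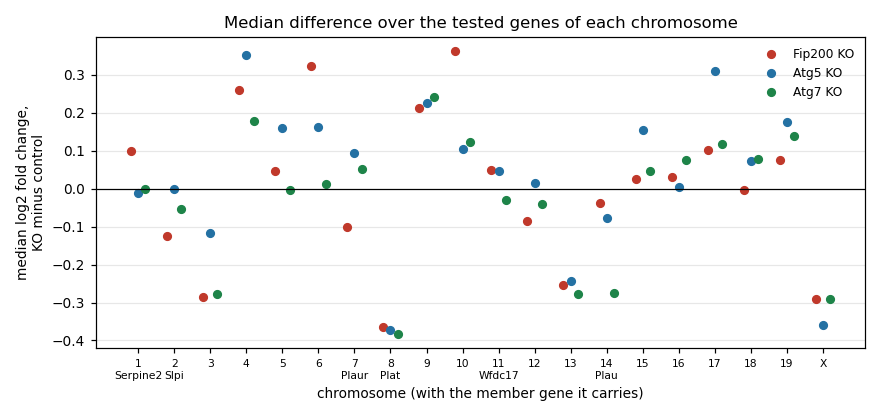
Median log2 fold change (KO minus control, vertical axis) over the tested genes of each chromosome (horizontal axis, with the member gene it carries), for the 3 KO groups. Chromosome 8, which carries Plat, has the lowest median in all 3 groups, between −0.38 and −0.37. The other members lie on chromosomes whose medians are between −0.28 and 0.10.

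Plau, the other activator, was not called in any comparison. Control libraries measured 454, 320 and 336 RPKM. Fip200 KO libraries gave 489, 344 and 535 RPKM, Atg5 KO libraries 591, 688 and 276 RPKM, and Atg7 KO libraries 276, 503 and 457 RPKM. Every KO group overlapped the controls, and Atg5 KO spanned the widest range, 2.49-fold from its lowest to its highest library. The log2 fold changes were 0.29 (SE 0.26, limma adjusted p = 0.593), 0.40 (SE 0.34, adjusted p = 0.404) and 0.13 (SE 0.26, adjusted p = 0.764). Without Atg5 KO replicate 3 the Atg5 KO difference was 0.80 (limma adjusted p = 0.0368), under the size of 1 that a call needs, and leaving out other libraries gave values down to 0.14. With a term for the library-name prefix the Atg7 KO difference was 1.49 (adjusted p = 0.396). Within the JG prefix the Atg5 KO difference was 0.96, from 328 RPKM in the controls to 640 RPKM in the KO libraries. Plau stood at rank 83 to 129 of all genes in the 4 groups, so it was among the most abundant transcripts with and without autophagy genes.

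With Plat lower and Plau overlapping control, the makeup of the activator transcripts differed between control and KO libraries. Because RPKM is a level per length, both can be set on 1 scale. Plau made up 35.2%, 35.9% and 25.2% of the summed Plau and Plat level in the 3 controls. Its share was 77.7%, 66.9% and 94.4% in the Fip200 KO libraries. Atg5 KO libraries gave 90.9%, 90.6% and 88.9%, and Atg7 KO libraries 88.0%, 78.3% and 80.4%. Tissue-type activator transcripts were the majority in each control library and urokinase transcripts in each KO library. The mean share was 32.1% ± 5.98 (SD, n = 3) in control and 79.6% ± 13.9, 90.1% ± 1.11 and 82.3% ± 5.10 in the KO groups, with a two-sided exact permutation p of 0.1 for each, the smallest that 3 against 3 libraries can give. The summed level of both activators was 1172 ± 242 RPKM in control and 570 ± 57.2, 574 ± 234 and 508 ± 172 RPKM in the KO groups (exact permutation p = 0.1 for each). The share and the sum were computed after the levels had been seen, and both carry the Plat difference already tested.

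**Figure D3:**
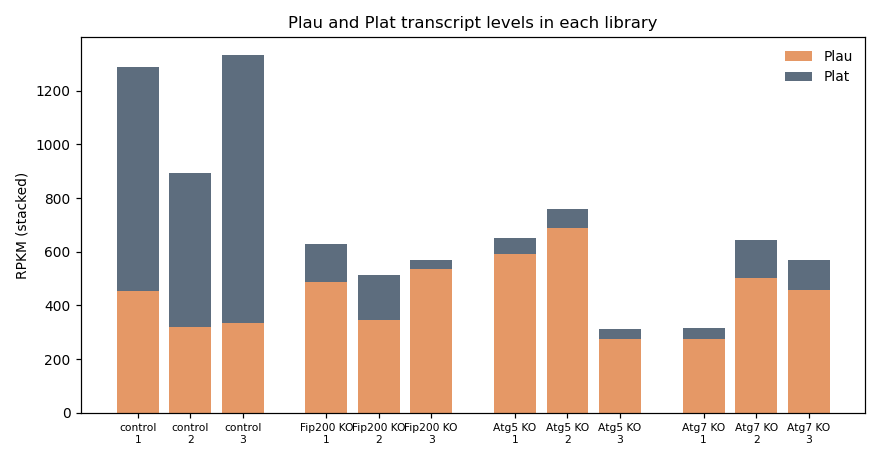
Plau and Plat levels in each library, stacked, in RPKM on the vertical axis, with libraries named by group and replicate. The Plat part is the larger in the 3 controls and the smaller in all 9 KO libraries, where Plau makes up 66.9% to 94.4% of the sum.

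Plaur, which holds urokinase at the cell surface, also overlapped between groups. It measured 167, 74.7 and 189 RPKM in control. Fip200 KO libraries gave 78.2, 106 and 96.4 RPKM, Atg5 KO libraries 180, 207 and 101 RPKM, and Atg7 KO libraries 136, 131 and 136 RPKM. Control replicate 2 was the lowest of all 12 libraries, and the Atg7 KO libraries were the most alike, within 1.04-fold. The log2 fold changes were −0.52 (SE 0.36, limma adjusted p = 0.499), 0.22 (SE 0.41, adjusted p = 0.696) and 0.01 (SE 0.33, adjusted p = 0.982). Without control replicate 2 they were −0.93, −0.19 and −0.40, none of which was called. With a term for the library-name prefix the Atg7 KO value was 1.10 (adjusted p = 0.583). Within the FY prefix the Fip200 KO value was −0.84, with each KO library below the only control. Within JG the Atg5 KO value was 0.70. In the order of group means, Atg5 KO (163 RPKM) stood above control (143), Atg7 KO (134) and Fip200 KO (93.6). Every neighbouring pair overlapped except Atg7 KO and Fip200 KO, whose libraries did not overlap, although the difference did not pass the test between KO groups (log2 fold change 0.53, SE 0.34, limma adjusted p = 0.771).

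Serpine2, also called protease nexin-1, inhibits thrombin and both plasminogen activators. It was chosen for its decrease. Control libraries held 28.5, 331 and 148 RPKM (1112, 16091 and 6010 reads), an 11.6-fold spread. Fip200 KO libraries held 2.70, 8.51 and 1.24 RPKM, Atg5 KO libraries 11.7, 12.7 and 0.95 RPKM, and Atg7 KO libraries 6.57, 7.82 and 9.32 RPKM. All 9 KO libraries lay below the lowest control. The mean was 40.8-fold, 20.1-fold and 21.4-fold lower, and the log2 fold changes were −4.93, −4.20 and −3.76. These sizes depend on the controls, being −5.91, −5.18 and −4.74 without control replicate 1 and −4.15, −3.42 and −2.98 without control replicate 2, and −3.15 in Atg5 KO without its replicate 3. Within the FY prefix, where the only control was the low one, the Fip200 KO value was −2.98, and within JG the Atg5 KO value was −4.13. The summed level of the fibroblast list was also highest in control replicate 2, as was Serpine2.

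Slpi, chosen in the same way, protects tissue from neutrophil elastase and cathepsin G. It was abundant in only 2 of the 3 controls, at 310 and 278 RPKM (6422 and 4813 reads), against 3.61 RPKM (60 reads) in control replicate 1. Fip200 KO libraries held 2.13, 0.96 and 0 RPKM (37, 17 and 0 reads), Atg7 KO libraries 1.52, 0 and 0.90 RPKM (23, 0 and 16 reads), and Atg5 KO libraries 1.71, 3.99 and 9.77 RPKM (29, 72 and 185 reads). With control replicate 1 included, 7 of 9 KO libraries lay below all controls, and 2 Atg5 KO libraries exceeded that control. A library with 0 reads allows a level of up to 3 reads, counting error only. The log2 fold changes were −5.83, −3.92 and −5.98. They became −7.89, −5.98 and −8.04 without control replicate 1, and −4.77, −2.86 and −4.92 without control replicate 2. Within the FY prefix, which holds only that low control, the Fip200 KO difference was −1.72, whereas within JG the Atg5 KO difference was −6.54.

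Wfdc17, the mouse WAP protein also known as Amwap, was a low transcript throughout. The controls held 1.12, 1.44 and 7.99 RPKM (10, 16 and 74 reads). Fip200 KO libraries held 4, 4 and 0 reads, Atg5 KO libraries 1, 1 and 0 reads, and no read was recovered in any Atg7 KO library. All 9 KO libraries lay below the lowest control, at depths where a few reads decide the level. Taking 3 reads per library as the most that a count of 0 allows, the mean level was lower by at least 10.2-fold in Atg7 KO, or 3.72-fold without control replicate 3. In Atg5 KO the pooled reads (2 against 100, scaled to library totals) were 49.3-fold lower, and 18.8-fold lower without control replicate 3. That control gave 74 of the 100 reads, and with 2 KO reads in all the size is uncertain. In Fip200 KO the mean was 12.4-fold lower (0.28 against 3.52 RPKM), and 4.51-fold lower without control replicate 3.

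For every gene tested, the share with all KO libraries below all controls was 12.4%, 22% and 20.4%. Plat, Serpine2 and Wfdc17 had that separation in all 3 groups, and Slpi in Fip200 KO and Atg7 KO. For the 3 inhibitors the choice of genes used this contrast, so nothing is read from the count.

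**Figure D4:**
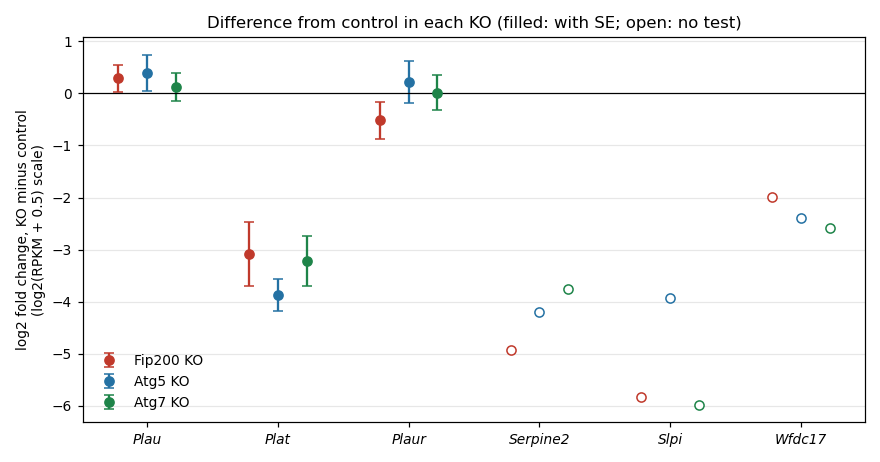
Log2 fold change of each gene, KO minus control, on the log2(RPKM + 0.5) scale (vertical axis), for the 3 KO groups. Filled points carry the standard error from limma, and open points are the genes chosen for their decrease, shown with no test. Plat lies between −3.88 and −3.09 and Slpi reaches −5.98, while Plau and Plaur lie between −0.52 and 0.40.

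The KO groups were also set against one another, in a fit of all 12 libraries. None of the 12233 genes tested was called in any of the 3 comparisons (0% in each by limma, 0 also by limma-voom on recovered reads), with 927, 916 and 562 genes at an unadjusted p under 0.05 for Atg5 KO against Fip200 KO, Atg7 KO against Fip200 KO and Atg7 KO against Atg5 KO. Plat was lower in Atg5 KO than in Fip200 KO by a log2 fold change of −0.79 (SE 0.62, limma adjusted p = 0.753). The Plat difference was −0.13 (SE 0.62, adjusted p = 0.974) between Atg7 KO and Fip200 KO and 0.66 (SE 0.62) between Atg7 KO and Atg5 KO. For Plau the differences were 0.11, −0.17 and −0.27, each with SE 0.35. Plaur differed most between Atg5 KO and Fip200 KO (0.74, SE 0.34, limma adjusted p = 0.654). These errors leave room for differences larger than the estimates, so the data do not show that the 3 knockouts act alike on these genes.

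The plasminogen list held 18 genes, of which 12 were in the tables and 10 were tested. Plg itself was not among the genes with expression values. Anxa2 and S100a10, which together bind plasminogen at the surface of endothelial cells, stayed abundant, and neither was called. Anxa2 measured 502 to 626 RPKM in control and 267 to 377 RPKM in Atg5 KO (log2 fold change −0.78, limma adjusted p = 0.0165). S100a10 had log2 fold changes of −0.70, −0.58 and −0.66. The plasminogen receptor Plgrkt was between 9.91 and 19.5 RPKM everywhere. None of the 10 tested genes was called in Fip200 KO or Atg7 KO, where 1.64% and 6.81% of all tested genes were lower, and 3 were lower in Atg5 KO, where 6.94% of all genes were. The 3 were Lrp1, the endocytic receptor that clears activator and inhibitor complexes (−2.63, SE 0.90, adjusted p = 0.0670), the complement protease Masp1 (−2.38, SE 0.74, adjusted p = 0.0517) and the related endocytic receptor Vldlr (−1.20, SE 0.30, adjusted p = 0.0286). Lrp1 spread from 4.22 to 49.6 RPKM among the controls. Its call was lost without control replicate 2 or 3 or Atg5 KO replicate 1 or 2 (limma adjusted p = 0.143 to 0.172). The Masp1 call was lost without control replicate 3 or Atg5 KO replicate 1 or 2, and its value was −1.50 without control replicate 2. The Vldlr call was lost only without Atg5 KO replicate 3 (−0.87). With Atg5 KO replicates 1 and 2 averaged, Lrp1 and Masp1 were not called (limma adjusted p = 0.170 and 0.124). Serpinf2, the main plasmin inhibitor of blood, and Serpinb2, an inhibitor of urokinase, stayed below 0.5 RPKM in every library.

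Of 31 other serpins, all in the tables, 13 were tested in Fip200 KO and none was called (1.64% of all genes lower and 0.347% higher). In Atg5 KO 5 of 12 were lower (6.94% of all genes) and in Atg7 KO 2 of 12 (6.81%), and no serpin was called higher (4.31% and 3.29% of all genes). The median log2 fold change was −0.48, −0.95 and −0.82, beside 0.02, 0.06 and −0.01 over all genes tested. Serpinb8 fell in Atg7 KO (−2.88, SE 0.38, limma adjusted p = 0.0106), from 3.28 to 8.68 RPKM in control to at most 0.57 RPKM. In Atg5 KO, where it passed the filter through the controls alone, it measured at most 0.26 RPKM. Serpinb9b, a mouse relative of the granzyme inhibitors, fell in Atg5 KO (−2.39, SE 0.15), and Serpinb1a, an inhibitor of neutrophil proteases, fell in Atg5 KO (−1.57) and Atg7 KO (−1.99). Serpinb6a (−1.32) and Serpinb6b (limma adjusted p = 0.0638) were also lower in Atg5 KO. Reads of these clustered clade B genes can be shared between close copies, so their split is uncertain.

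Of 12 WAP, Kunitz and Kazal inhibitors, 9 were in the tables. Spint1, the membrane inhibitor of hepatocyte growth factor activator and matriptase, was lower in Atg5 KO (−1.62, SE 0.45, limma adjusted p = 0.0362), at 0.93, 1.45 and 0.14 RPKM against 2.02 to 4.09 RPKM in control. In Fip200 KO and Atg7 KO it passed the filter through the controls alone and measured at most 0.14 and 0.38 RPKM. Pi16 was lower in Atg5 KO (−1.34) and Atg7 KO (−2.37). The other called genes passed the filter through 1 group alone and are given by level. Wfdc2 measured 3.50, 0.90 and 0.50 RPKM in control and 0, 0.23 and 0 RPKM in Atg7 KO, and Kazald1 0.73, 1.32 and 1.03 RPKM in control and 0.23, 0.14 and 0.34 RPKM in Atg5 KO. Tfpi2, a Kunitz inhibitor of plasmin, is listed at 0 in the 3 controls and at 1.22, 1.42 and 0.50 RPKM in Atg5 KO.

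Of 47 secreted and membrane serine proteases, 35 were in the tables and 14 were tested in each comparison. Prss16, a thymus-type protease, was lower in every KO group (−2.77, SE 0.44, then −2.56, SE 0.39, and −2.74, SE 0.30), from 9.69 to 16.9 RPKM in control to at most 2.75 RPKM. C1s1, a complement C1s protease, was lower in Fip200 KO (−2.93) and Atg5 KO (−2.62). In Atg7 KO, where only the controls reached the filter level, it measured at most 0.37 RPKM against 2.67 to 12.4 RPKM in control. The Fip200 KO calls of Prss16 (limma adjusted p = 0.0550) and C1s1 (0.0671) were narrow. Both were lost without control replicate 2, control replicate 3 or Fip200 KO replicate 2. The Prss16 call was also lost without control replicate 1, and the C1s1 call without Fip200 KO replicate 1. Prss23 was higher in Atg5 KO (3.36, SE 0.57, limma adjusted p = 0.00909) and Atg7 KO (3.78, SE 0.89, adjusted p = 0.0361, but 0.115 and 0.132 without control replicate 2 or 3), with 2.24 (SE 0.90, adjusted p = 0.286) in Fip200 KO. Prss35 was lower (−2.22) and Cfb higher (1.36, SE 0.47, limma adjusted p = 0.0697) in Atg5 KO. The Cfb call was lost when any control was left out (limma adjusted p = 0.107 to 0.160). Its value was 0.80 without Atg5 KO replicate 3.

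In the thrombin axis, thrombomodulin (Thbd), which turns thrombin from a clotting enzyme into an activator of protein C, gave the clearest difference. It measured 163, 274 and 201 RPKM in control and 27.5 to 61.4 RPKM in all KO libraries. Its log2 fold changes were −2.34 (SE 0.26, limma adjusted p = 0.0266), −2.51 (SE 0.25, adjusted p = 0.00372) and −1.85 (SE 0.21, adjusted p = 0.00806). The thrombin receptor F2r (61.4 to 123 RPKM) and the protein C receptor Procr (430 to 785 RPKM) were not called in any KO. Met, the receptor of hepatocyte growth factor, was called higher in all 3 (1.53, 1.51 and 1.5), with 7.22 to 12.4 RPKM in control and 15.5 to 42.7 RPKM in KO libraries. Its call ended without control replicate 2 or 3 in Fip200 KO and Atg7 KO (limma adjusted p = 0.111 and 0.136 in Atg7 KO), and also without Fip200 KO replicate 1 or 2 and without Atg7 KO replicate 1. Tissue factor (F3) was lower in Atg5 KO (−1.18, SE 0.46, adjusted p = 0.0915). Among the fits with 1 library left out, the F3 call was kept only without control replicate 1. Without control replicate 2 the F3 value was −0.62. Over the 119 related genes of these lists, 98 were in the tables and 4 of 52 tested were lower (7.69%, against 1.64% of all genes) and 1 higher (1.92% against 0.347%) in Fip200 KO. In Atg5 KO 17 of 51 were lower (33.3% against 6.94%) and 4 higher (7.84% against 4.31%). In Atg7 KO 9 of 50 were lower (18% against 6.81%) and 2 higher (4% against 3.29%). Of these calls, 1 lower in Fip200 KO, 2 lower and 1 higher in Atg5 KO and 3 lower in Atg7 KO were of genes that reached the filter of 0.5 RPKM in only 1 of the groups compared, which had to differ, so the shares are a description. Without control replicate 2 or control replicate 3, no related gene was called in Fip200 KO, and in Atg7 KO 4 or 5 were lower and 0 higher. Without Atg5 KO replicate 3, 2 related genes were higher in Atg5 KO, and 11 were lower without control replicate 3. Outside the genes that passed the filter through 1 group, 9 of 15 lower calls (C1s1, Klk8, Pi16, Prss16, Prss35, Serpinb1a, Serpinb6a, Serpinb9b and Thbd) and 2 of 3 higher calls (Met and Prss23) in Atg5 KO held whichever library was left out, as did 4 of 6 lower calls in Atg7 KO (Pi16, Prss16, Serpinb8 and Thbd) and none in Fip200 KO. The lists were drawn up with earlier results of these data known, and Prss16 and Thbd were the 2 genes lower in all 3 comparisons, which share their controls, with KO libraries at the filter level in each.

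**Figure D5:**
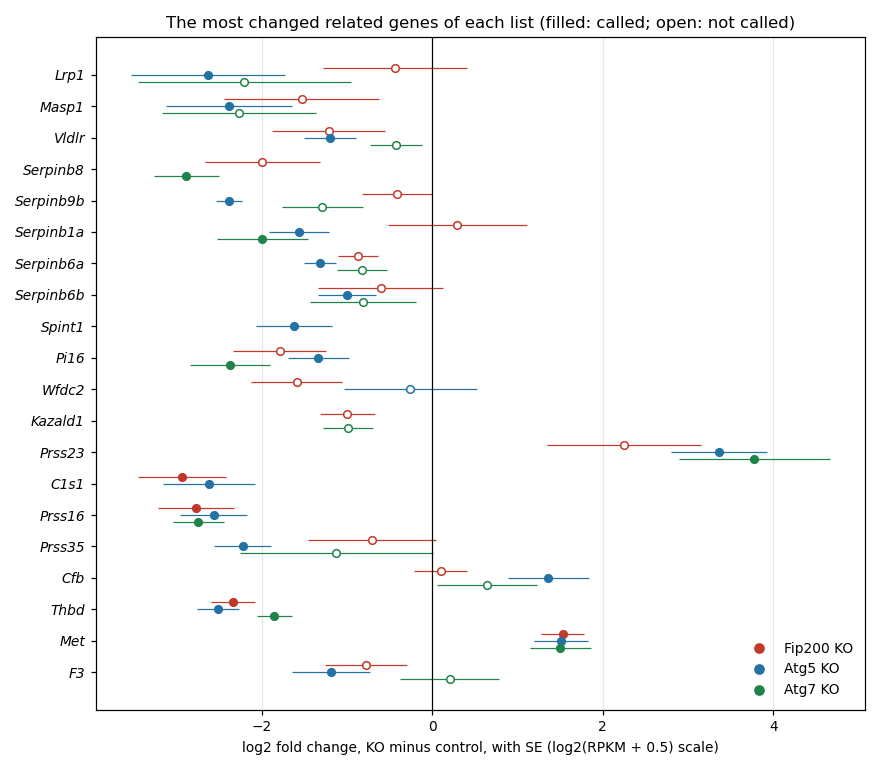
Log2 fold change, KO minus control, with standard error (horizontal axis, log2(RPKM + 0.5) scale) of up to 5 called genes of each related list. Filled points are called and open points are not, and comparisons in which a gene was not tested, or reached 0.5 RPKM in only 1 of the groups, are left out. Thbd and Prss16 lie at −1.85 or lower in all 3 KO groups and Met at 1.5 to 1.53.

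Likeness over the 12 libraries was measured as Pearson's r of log2(RPKM + 0.5) among 12233 genes. It describes these libraries only, since points of a group share a genotype. For Plat the 5 most alike genes were Jak3 (r = 0.98), Cope (0.96), Vps37a (0.96), Fam3a (0.96) and Zbtb4 (0.96). Jak3, Cope and Vps37a lie on chromosome 8, as Plat does. Jak3 went from a mean of 19.5 RPKM in control to 6.77, 3.41 and 5.16 RPKM in the KO groups, and the coatomer gene Cope from 139 to 78.1, 70.6 and 77.2 RPKM. The gene most like Serpine2 was Map1lc3a (r = 0.97), which encodes the autophagosome protein LC3A and had means of 27.0, 9.53, 11.9 and 13.0 RPKM. It was followed by Sestd1 (0.96), Klf12 (0.95), Sept5 (0.94) and Smox (0.94).

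Slpi was most like Npc2 (r = 0.95), the lysosomal cholesterol carrier, with means of 163, 64.3, 83.3 and 66.3 RPKM, and then Fabp3 (0.94), Igf2bp3 (0.94), Slc25a25 (0.94) and Rnf34 (0.93). Wfdc17 was most like Mxd1 (0.97), S100a8 (0.94), Pcdhb7 (0.93), Nedd4l (0.93) and E230013L22Rik (0.92). For Plau and Plaur, which overlapped between groups, the highest r was lower. The 3 inhibitors were chosen for a decrease in KO libraries, and Plat has a like split. Their r over these libraries reflects that split, so nothing is read from the contrast. Plau was closest to Rftn2 (0.88), Cklf (0.85), Fam217a (0.85), Haus2 (0.83) and 3110035E14Rik (0.82), and Plaur to Prx (0.88), Ccnjl (0.85), Hyal2 (0.84), Epc2 (0.84) and Nrarp (0.84). Between members, Plat was closer to Wfdc17 (r = 0.86) and Serpine2 (0.82) than to Slpi (0.63), and its r with Plau was −0.15.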

How the data were processed

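RNA of 562 cells was sequenced in 12 libraries, 3 for the control and 3 for each knockout. The study's methods name TopHat2 for alignment and a Bioconductor package for differential expression, with a directional library kit; genome build, annotation and versions are not given in the sources used here. RPKM values per gene and library were deposited by the authors in 3 tables, one per KO with the controls. The tables also hold the authors' group means on a normalised signal scale, and their fold changes and p-values. The group means were used to set the scale of the recovered reads, and the fold changes and p-values were not used. Whole reads were recovered from the RPKM values and these means for 14851 of 14851 genes (100% whole within 0.05 reads), and 20 genes had none. Totals of 17266926 to 23629730 reads leave only the lowest genes limited by counting.

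Differences were tested with limma 3.58.1 (R 4.3.3, trend) on log2(RPKM + 0.5), over genes with RPKM of at least 0.5 in 3 of the 6 libraries of a comparison, with Benjamini-Hochberg adjustment over all of them. Genes were called at adjusted p of 0.1 or less where the change on the log2 scale was 1 or more in either direction. The fold change understates the change of low genes. KO groups were compared in 1 fit of 12 libraries. The script was tested on simulated data. Groups follow the sample labels. The labels do not say that replicates were separate cultures, so p-values measure only the spread between these samples.

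The members and the related lists were chosen with earlier results of these data known. Named genes are the 6 members, fixed partners (Serpinb2, Serpinf2, Plg, Plgrkt, Anxa2, S100a10, Lrp1, Thbd, F3, F2r and Procr; 1 further partner is not reported here), up to 5 called genes of each list by the size of their change, and the 5 genes most like each member. Ikbkb, Ap3m2, Klk8 and the chromosome medians were added after values were seen. Alternatives covered pseudocounts of 0.1 and 1, no filter and a filter of RPKM 1, median-of-ratios scaling, a replicate block, limma-voom on recovered reads, a single fit of 12 libraries, a term for the library-name prefix, leaving out each library and, added later, Atg5 KO replicates 1 and 2 averaged. Python 3.11.15, scipy 1.17.1 and matplotlib 3.10.9 were used for the rest.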

Additional observations from a re-analysis of the deposited data

How the results depend on the processing

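Pseudocounts, filters and median-of-ratios scaling left every member's direction unchanged. Without a filter the Fip200 KO difference of Plat kept its size of −3.09 but was no longer called (adjusted p = 0.128), and 146 genes in all were called in place of 234. With limma-voom on recovered reads it was −3.10 (adjusted p = 0.104). Wfdc17, near 0 reads in the KO libraries, moved to −3.03, −3.93 and −4.63 (Fip200 KO, Atg5 KO and Atg7 KO) with a pseudocount of 0.1 and to −3.44, −4.47 and −5.39 with limma-voom, against −1.99, −2.39 and −2.58, and these are no bounds. Slpi, with 0 reads in 1 library each of Fip200 KO and Atg7 KO, went from −5.83 and −5.98 there to −6.79 and −6.97 with a pseudocount of 0.1 and to −7.55 and −7.60 with limma-voom.

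Replicate numbers did not pair the samples (correlations of deviations between same-numbered libraries from −0.22 to 0.08). With the replicate block, Plat in Fip200 KO was −3.09 and not called (adjusted p = 0.117), 93 genes were called in Fip200 KO and 0 related genes were called higher there. With 1 fit of 12 libraries, 608 genes were called in Fip200 KO, 2 related genes were higher there and 9 related genes were lower in Atg5 KO.

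The library-name prefix as a term, in the fit of 12 libraries, left 47, 663 and 38 genes called, with 6 and 2 related genes lower in Atg5 KO and Atg7 KO and 0 higher in Fip200 KO and Atg7 KO. Plat was then −3.18 and −2.27, not called, in Fip200 KO and Atg7 KO (adjusted p = 0.402 and 0.602). Serpine2 was −2.98 and −1.61 and Slpi −1.72 and −9.74 in Fip200 KO and Atg7 KO. Plau and Plaur in Atg7 KO went from 0.13 and 0.01 to 1.49 and 1.10, not called (adjusted p = 0.396 and 0.583). Plau in Fip200 KO turned to −0.017, and between KO groups 4 uncalled differences turned sign: Plau at 1.51 (Atg7 KO against Fip200 KO) and 0.53 (against Atg5 KO), Plat at 0.91 (against Fip200 KO) and Plaur at 0.41 (against Atg5 KO).

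Leaving out 1 library at a time gave −3.53 to −2.33 for Plat in Fip200 KO. Uncalled values crossed 0 for Plau in Atg7 KO (−0.040 to 0.39), Plaur in Atg5 KO (−0.19 to 0.53) and Atg7 KO (−0.40 to 0.26), Plau in Atg5 KO against Fip200 KO (−0.15 to 0.51), and Plau (−0.36 to 0.10) and Plat (−0.88 to 0.44) in Atg7 KO against Fip200 KO. Counts of called genes ran from 0 (without control replicate 2 or 3) to 598 (without Fip200 KO replicate 3) in Fip200 KO and from 576 (without control replicate 3) to 1514 in Atg7 KO. Related genes ran from 0 to 4 lower and 0 to 1 higher in Fip200 KO, 11 to 17 lower and 2 to 6 higher in Atg5 KO, and 4 to 12 lower and 0 to 4 higher in Atg7 KO. The share of Plau in the activator sum, recomputed as an alternative added after the data were seen, stayed 40.2 to 59.9 percentage points above control.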
